A study of Homo sapiens with 6 samples.

Results

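The sites described here were accessible stretches of chromatin away from gene starts that were among the most accessible of their kind in naive human embryonic stem (nES) cells and lost accessibility after dimethyl-α-ketoglutarate (dm-αKG). The counts table held 171517 merged peaks, of which 125890 were distal, with the centre more than 1 kb from the nearest GENCODE protein-coding transcript start. A site was kept when its mean accessibility over the 3 control libraries, in counts scaled to the library total (CPM), was in the top 20% of distal peaks, at or above 6.53, when the log2 ratio of mean dm-αKG CPM to mean control CPM was at or below -0.7, and when every dm-αKG library was below every control library. This gave 1734 sites, which are 6.89% of the 25178 highly accessible distal peaks (95% Wilson interval 6.58 to 7.21). The sites were thus chosen by their measured CPM in these same 6 libraries, so their levels and ratios are given as a description, with no test, and were set beside the other 23444 highly accessible distal peaks.

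All libraries were made from the established line H9 of human embryonic stem cells, kept in tt2iLGö medium, which holds inhibitors of MEK, GSK3 and protein kinase C together with LIF and maintains a state close to the epiblast before implantation. The 3 dm-αKG libraries came from cells given 4 mM dm-αKG, a cell-permeable ester of α-ketoglutarate, for 24 h, and the 3 control libraries from cells given 0 mM. The labels call the controls DMSO. Cells had been grown on mouse fibroblast feeders, which were depleted before plating on laminin, and the methods describe 3 biological replicates of a single experiment with this 1 line. At promoters, 7 of 8 naive marker genes had a peak, with a median of 14.1 control CPM and a highest value of 43.2 at SUSD2, against a median of 7.98 for 6 of 6 primed genes, up to 21.8 at DUSP6, and of 6.29 for 4 of 5 mesoderm and fibroblast genes. ARGFX was the lowest naive marker with a peak at 2.67, and promoters of trophectoderm markers were accessible too, at a median of 11.3 for 6 of 8. Library totals ran from 13025674 to 26828622 counts, and the lowest count of any of the 1734 sites in any library was 15.

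Accessible DNA far from gene starts largely corresponds to enhancers and to sites bound by architectural proteins such as CTCF. Enhancers are stretches on which several sequence-specific factors bind close together and displace nucleosomes, and in pluripotent cells OCT4 and SOX2 often bind side by side on a composite element in which a SOX site is followed by an octamer. Naive cells use further factors there, among them KLF, TFAP2C and TFCP2L1, and TEAD factors act with YAP in both epiblast and trophectoderm. α-Ketoglutarate is a co-substrate of dioxygenases that remove methyl groups from histones and oxidise methylated DNA. ATAC-seq counts the insertions of a transposase, so a lower count marks less accessible DNA. In these bulk libraries fewer cells with an accessible site and less accessibility per cell cannot be told apart.

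The letters of a few sites show what these elements look like. The first 3 have some of the highest control CPM among sites whose central 200 bases hold a match to the OCT-SOX composite element (CATTGT, 1 base, then the octamer ATGCAAAT, on either strand, with up to 2 mismatches). Sequences are the + strand of hg38, 5′ to 3′, and capitals mark the match, which had 2 mismatches in each of them. The names are those of the nearest protein-coding gene and do not state a target.
ZBTB47, chr3:42631742-42631941: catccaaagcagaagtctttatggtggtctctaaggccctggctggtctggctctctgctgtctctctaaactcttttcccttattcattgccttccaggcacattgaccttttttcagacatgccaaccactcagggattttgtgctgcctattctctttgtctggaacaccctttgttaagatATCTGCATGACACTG
DIAPH3, chr13:59409733-59409932: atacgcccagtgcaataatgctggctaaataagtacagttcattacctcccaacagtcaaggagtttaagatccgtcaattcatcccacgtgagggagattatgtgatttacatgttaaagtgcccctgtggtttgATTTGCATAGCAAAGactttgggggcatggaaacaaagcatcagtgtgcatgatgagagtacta
GPC6, chr13:93216219-93216418: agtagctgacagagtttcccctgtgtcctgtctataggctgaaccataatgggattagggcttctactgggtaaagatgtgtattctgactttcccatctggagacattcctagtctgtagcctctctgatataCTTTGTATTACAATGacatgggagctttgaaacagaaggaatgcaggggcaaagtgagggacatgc

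The ZBTB47 site lay in an intron of NKTR, 21855 bp from the start of ZBTB47, and read 31.6, 30.6 and 30.1 CPM in the 3 control libraries and 13.2, 13.6 and 12.7 CPM with dm-αKG, a log2 ratio of -1.23. Its match covered bases 186 to 200 of the window, and it also held a PRDM14 motif. The DIAPH3 site lay 603345 bp from that formin gene and read 22.8, 22.0 and 21.2 against 12.2, 12.97 and 12.4 (log2 ratio -0.81). The GPC6 site, 10488 bp from this heparan sulphate proteoglycan gene, read 19.5, 19.3 and 22.7 against 7.68, 8.95 and 10.7 (log2 ratio -1.17). All 3 were therefore still well above the floor of counting after treatment, and libraries of a treatment were close to each other.

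Further windows show the site of highest control CPM for the SOX motif, for the octamer, and for the OTX motif, the last of which also holds a TEAD motif. They stand for the motifs that were more frequent in these sites than in the other highly accessible distal peaks. Capitals mark the motifs, and coordinates and strand are as above.
CYP1A2, chr15:74760270-74760469: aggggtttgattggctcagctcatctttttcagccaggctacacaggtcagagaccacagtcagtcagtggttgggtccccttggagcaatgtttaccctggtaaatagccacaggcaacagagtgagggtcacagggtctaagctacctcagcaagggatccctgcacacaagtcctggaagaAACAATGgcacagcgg
MDM2, chr12:68831319-68831518: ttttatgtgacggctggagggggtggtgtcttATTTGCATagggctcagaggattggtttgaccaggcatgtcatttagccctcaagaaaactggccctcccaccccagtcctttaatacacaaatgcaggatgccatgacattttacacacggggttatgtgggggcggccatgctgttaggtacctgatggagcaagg
TMEM275, chr1:46517156-46517355: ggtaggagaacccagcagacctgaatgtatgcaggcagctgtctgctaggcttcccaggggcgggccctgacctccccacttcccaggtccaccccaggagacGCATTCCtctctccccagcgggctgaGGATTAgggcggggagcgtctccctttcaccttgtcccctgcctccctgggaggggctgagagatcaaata

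The CYP1A2 site, 11525 bp from this liver cytochrome P450 gene, was among the most accessible of all 1734, with 41.5, 35.0 and 42.9 CPM in control and 15.1, 16.9 and 19.6 CPM with dm-αKG (log2 ratio -1.21). The MDM2 site lay in an intron of the gene for the ubiquitin ligase of p53 and read 29.2, 27.5 and 30.7 against 9.73, 9.74 and 10.6 (log2 ratio -1.54). The TMEM275 site read 35.7, 33.2 and 31.004 against 20.7, 21.1 and 18.7 (log2 ratio -0.72), close to the threshold of the selection. High level and large loss thus occurred together in some sites and apart in others.

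Across all 1734 sites the median CPM in the 3 control libraries was 9.43, 9.59 and 9.59, and in the 3 dm-αKG libraries it was 5.03, 4.87 and 5.22. The other highly accessible distal peaks had medians of 10.6 in each control library and of 10.1, 10.2 and 10.4 with dm-αKG, so their distributions nearly coincided. Together the sites took 1.97% ± 0.014 (SD, n = 3) of the counts of a control library and 1.03% ± 0.038 (SD, n = 3) of a dm-αKG library. The plot of CPM by library shows that the 3 libraries of a treatment were alike and that dm-αKG 3 was slightly higher than the other two.

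**Figure D1:**
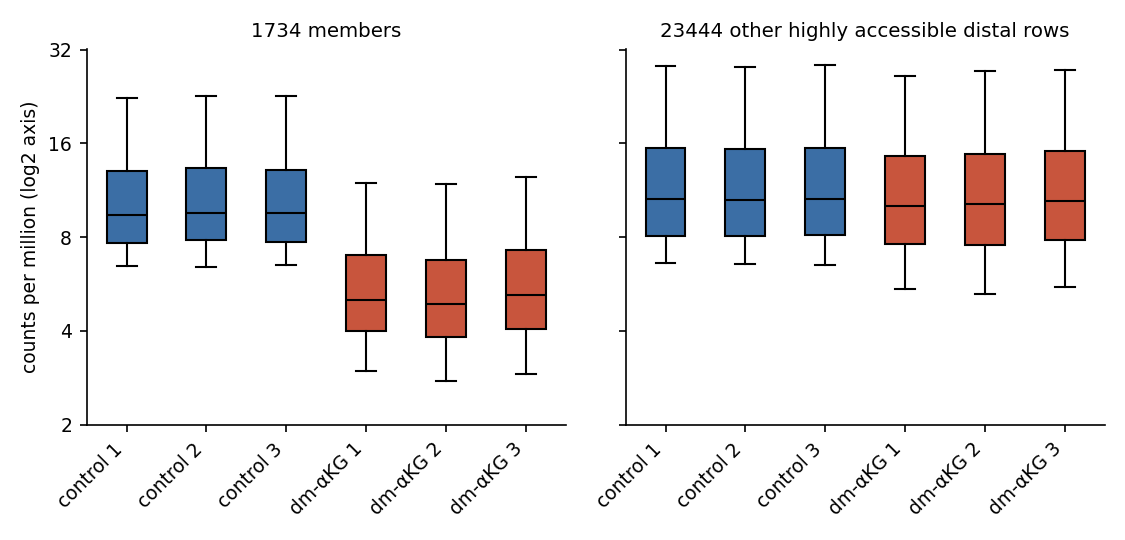
CPM per library on a log2 axis for the 1734 sites (left, members) and the other 23444 highly accessible distal peaks (right, rows of the counts table). Boxes span the quartiles with the median as a line and whiskers reach the 5th and 95th percentiles; the medians on the left are 9.43 to 9.59 in control and 4.87 to 5.22 with dm-αKG, and the difference on the left follows from the selection.

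The log2 ratio of the sites had a median of -0.88, with quartiles of -1.07 and -0.78 and a lowest value of -2.13. Of the sites, 539 (31.1%) were at or below -1 and 65 (3.75%) at or below -1.5. The other highly accessible distal peaks had a median of -0.07 and all 171517 peaks a median of 0.03. At an adjusted p below 0.01 and a log2 fold change below -1 by edgeR's quasi-likelihood test over all peaks with Benjamini-Hochberg adjustment, 585 sites (33.7%) were called less accessible, against a background of 1.96% over all peaks and 2.32% over the highly accessible distal peaks. Every highly accessible distal peak that was called lay among the sites, which made up 17.4% of all calls in the table. The criterion that no library overlaps was met by 16.1% of all peaks and by 33.1% of highly accessible distal peaks. These shares are fixed in large part by the rule and are given for scale only.

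**Figure D2:**
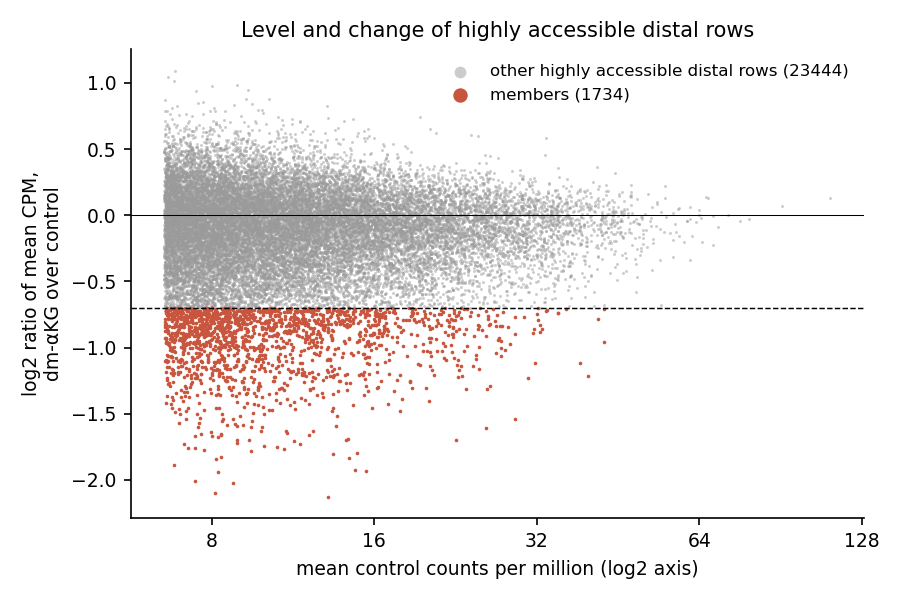
Mean control CPM (log axis) against the log2 ratio of mean dm-αKG over mean control CPM for the 25178 highly accessible distal peaks, with the 1734 sites marked. The sites lie below the dashed line at -0.7, down to -2.13, with mean control CPM of up to 42.7, whereas the mirrored region at or above 0.7 holds 50 peaks.

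Loss was partial. After treatment 493 sites (28.4%) still had a mean CPM at or above the level of 6.53 that had defined high accessibility. The median site moved from percentile 88.3 of distal peaks in control to percentile 72.7 with dm-αKG. Most sites, 1584 (91.3%), were in the peak lists of both treatments and 143 (8.25%) in the control list only, and 91.8% were in the dm-αKG list, against 99.1% of the other highly accessible distal peaks. The fold enrichment over background that the peak caller gave had a median of 14.97 in the control list and 11.7 in the dm-αKG list for the sites, and of 14.9 and 14.7 for the others. Strictly, then, these were sites of reduced accessibility, and few were no longer found as a peak.

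The thresholds cut through a continuous distribution. Between -0.75 and -0.7 there were 316 sites, and just outside, between -0.7 and -0.65, there were 364 peaks that met the other criteria. Nearest inside the ratio threshold were sites near ABCA1 (25.1 to 15.5 mean CPM) and C15orf39 (17.2 to 10.6), both at -0.70, and nearest outside were peaks of KDM4C (20.7 to 12.7), LRRN2 (10.2 to 6.27) and SLC14A2 (7.58 to 4.67), also at -0.70 after rounding. At the level threshold, sites near SALL4 (6.54 mean control CPM), XPO6 and SCNN1B (both 6.55) were inside, and peaks near TRAPPC8, NANS and XYLT2 (6.53 each) were outside. A further 7896 distal peaks met the ratio and non-overlap criteria at lower control levels, and 2 met level and ratio but overlapped. Close to gene starts such loss was rare, since 96 of 19109 peaks within 1 kb of a start and at least as accessible met the same ratio and non-overlap criteria.

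The reverse pattern was less frequent. Under the mirrored rule, with the same control level, a log2 ratio at or above 0.7 and every dm-αKG library above every control library, there were 50 peaks. Because the level was set on the control libraries, which favours losses, the count was repeated with the level set on the mean of all 6 libraries, an alternative chosen after seeing the data, and this gave 1115 peaks with loss and 182 with gain.

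To describe the loss in a library that had no part in the choice, the rule was applied to 5 libraries at a time. Without control 1, 2 or 3 it chose 1838, 1792 and 1786 peaks, whose median log2 ratio taken with the left-out control alone was -0.85, -0.87 and -0.86. Without dm-αKG 1, 2 or 3 it chose 1746, 1666 and 1995 peaks, with a median in the left-out library of -0.87, -0.92 and -0.76. Between 99.7% and 100% of these peaks were below 0 in the library left out, and between 97.8% and 99.8% did not overlap there, against 40.8% to 47.7% of the other highly accessible distal peaks. The smallest loss was seen in dm-αKG 3, also the library with the fewest counts. The libraries of the other treatment had still been used, so this is a description and not an independent test.

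Among the sites of loss, the 12 lowest ratios were at sites with mean control CPM between 6.80 and 15.5, beside a median of 9.46 for all sites. Some rest on low counts with dm-αKG, down to 15 in 1 library at the ZDHHC17 site, so their ratios are less precise. Near STRADB, which encodes a pseudokinase partner of LKB1, a site at chromosome 2, 201483849 to 201484057, read 12.7, 13.4 and 13.3 CPM in control and 3.47, 2.57 and 2.99 CPM with dm-αKG, 4.37-fold lower. A site in an intron of TYW1B, a gene of transfer RNA modification, read 7.82, 8.08 and 8.42 against 1.86, 1.65 and 2.15 and was in the control list only. Their central 200 bases are shown because the STRADB and TYW1B sites had the lowest log2 ratios of all sites. The first held none of the 19 motifs searched and the second held an octamer, in capitals. Distal peaks below the control level threshold reached lower log2 ratios, down to -3.34.
STRADB, chr2:201483853-201484052: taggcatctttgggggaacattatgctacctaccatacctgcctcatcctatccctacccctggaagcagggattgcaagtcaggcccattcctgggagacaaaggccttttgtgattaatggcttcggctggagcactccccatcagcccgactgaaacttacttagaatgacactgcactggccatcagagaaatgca
TYW1B, chr7:72817799-72817998: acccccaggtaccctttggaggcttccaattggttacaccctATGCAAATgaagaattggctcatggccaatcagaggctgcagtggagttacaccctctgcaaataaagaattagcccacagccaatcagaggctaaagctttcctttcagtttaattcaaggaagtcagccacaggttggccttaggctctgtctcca

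The other 10 of the 12 lowest ratios lay near or in SEC24B (-2.02), TBCD (-2.01), KIAA0513 (-1.94), DCTN6 (-1.94), PTPN1 (-1.93), ZDHHC17 (-1.89), GAL (-1.84), F12 (-1.84), HHLA1 (-1.82) and MEIS3 (-1.80). The PTPN1 site, 96993 bp from this tyrosine phosphatase gene, read 13.2, 17.1 and 13.9 against 4.14, 3.42 and 4.07. The MEIS3 site, near a homeobox gene, read 12.997, 13.8 and 13.4 against 3.54, 4.21 and 3.76. The F12 site lay where the genes F12, coagulation factor XII, and GRK6, a receptor kinase, overlap and read 14.2, 13.1 and 15.7 against 3.504, 3.56 and 4.99. Of these 12 sites, 5 were intronic or exonic, and the TYW1B, TBCD, KIAA0513 and PTPN1 sites had no counterpart in the dm-αKG list.

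At the upper end of accessibility, a site in an intron of DHRSX read 44.04, 42.5 and 41.5 CPM against 20.7, 20.9 and 24.3. None of its 31-base words occurred only once in the reference, which was searched with chromosomes X and Y both included. Whether the authors' alignment placed its reads at a single position was not tested. The next were sites near ELMO3, a regulator of Rac signalling (40.7, 42.2 and 45.1 against 22.8, 30.0 and 25.6), and YPEL4 (42.5, 40.4 and 41.6 against 24.4, 25.6 and 22.5). A site in an intron of SARS1, which encodes seryl-tRNA synthetase, read 38.8, 38.1 and 38.5 against 18.7, 15.7 and 18.9. Sites near PPIAL4D and RAN (35.0 mean control CPM each) were also among the 8 highest, with CYP1A2, and in the PPIAL4D site 36.5% of the words were unique. Among those named the log2 ratio ran from -0.71 to -1.21.

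By position, 918 sites (52.9%) lay outside protein-coding genes, 745 (43.0%) in their introns and 71 (4.09%, interval 3.26 to 5.13) in exons, the last share being 7.87% (7.54 to 8.23) among the other highly accessible distal peaks. The median distance to the nearest start was 24028 bp, against 19006 bp. The share of highly accessible distal peaks that were sites of loss rose with distance, from 4.81% (4.25 to 5.43) at 1 to 5 kb, through 6.997% at 5 to 10 kb, 7.13% at 10 to 50 kb and 7.89% at 50 to 100 kb, to 8.23% (7.35 to 9.21) beyond 100 kb. Fewer of the sites were within 1 kb of a start of a long noncoding RNA (4.33%, 3.46 to 5.39, against 9.90%, 9.53 to 10.3). The intervals cover counting error only, since neighbouring peaks and reads without molecular identifiers are not independent.

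Base composition differed more than position. The median GC content of the central 200 bases was 50.5% in the sites and 56% in the others, and the median number of CpG was 2 against 4. Of highly accessible distal peaks under 40% GC, 14.0% (10.5 to 18.3) were sites of loss, and the share fell in each step of 5 percentage points, to 13.1%, 11.4%, 9.91%, 5.86% and 3.17%, reaching 0.934% (0.703 to 1.24) at 65% GC or more. The median log2 ratio of all highly accessible distal peaks moved in parallel from -0.31 under 40% GC to 0.04 at 65% or more. By control level the share was 8.14%, 8.70%, 6.87%, 6.71% and 4.01% from the lowest to the highest of 5 classes of equal size. Chromosomes 17 (3.70%) and 19 (3.72%) had the lowest shares. The highest was on chromosome Y, with 2 of 13 peaks (15.4%, 4.33 to 42.2), and whether reads there were placed rightly was not tested. The part of base composition in the loss was not tested.

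Sequence motifs were not used by the rule, and each share below is that of central 200-base windows with at least 1 match on either strand. The SOX motif (CATTGT followed by T, G or C) was in 261 sites, 15.1% (13.4 to 16.8), and in 7.17% (6.85 to 7.51) of the other highly accessible distal peaks. The OCT-SOX element was in 55 sites, 3.17% (2.44 to 4.11), against 1.37% (1.23 to 1.53), and the octamer alone in 114, 6.57% (5.50 to 7.84), against 3.43% (3.21 to 3.67). The TEAD motif (ACATTCC or GCATTCC) was in 303, 17.5% (15.8 to 19.3), against 11.7% (11.3 to 12.2), and the OTX motif (GGATTA) in 178, 10.3% (8.92 to 11.8), against 6.50% (6.19 to 6.82). None of these pairs of intervals overlap. Over all 171517 peaks of the table the shares were 6.71% for SOX, 0.760% for OCT-SOX, 2.283% for the octamer and 8.73% for TEAD. The octamer is part of the OCT-SOX element, and the SOX motif shares its first letters, so these counts are not separate.

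Because these motifs are rich in A and T, the others were also weighted to the GC content of the sites. Their weighted share was 9.97% for SOX, 2.27% for OCT-SOX, 5.31% for the octamer, 14.7% for TEAD and 8.80% for OTX. Each weighted share lay below the interval of the sites, clearly for SOX and TEAD and by little for OCT-SOX, the octamer and OTX, whose intervals begin at 2.44%, 5.50% and 8.92%. Differences thus narrowed at equal GC content and kept their direction. Without the families of 10 or more peaks of shared sequence described below, the octamer was in 4.61% of sites and 3.00% of the others, unweighted. Weighting and leaving out families were not combined.

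CTCF, AP-1 and TFAP2 were less frequent in the sites under both comparisons, with both shares of the others above the interval of the sites. CTCF, the factor that anchors chromatin loops, had a match with up to 1 mismatch in 58 sites, 3.34% (2.60 to 4.30), against 11.96% (11.6 to 12.4), or 8.44% after weighting. TFCP2L1 (a pair of CCAG with 6 bases between them) was in 3.98% against 7.87%, or 4.71% weighted, which is within the interval of the sites (3.16 to 5.01). AP-1 (TGAGTCA) was in 3.75% (2.95 to 4.75) against 5.69% and 6.75% weighted, and in 13 of the 50 peaks with gain. TFAP2 (GCCTCAGGC and related forms) was in 4.96% (4.03 to 6.08) against 8.31%, or 6.65% weighted, and FOX (TGTTTAC) in 2.88% (2.19 to 3.78) against 3.39%, or 4.70% weighted. ETS (CCGGAAG) was in 1.85% against 3.04% and ZIC (CAGCAGG) in 10.4% against 12.8%, but the weighted shares of 1.74% and 10.3% were slightly below those of the sites. KLF (CACACCC or CACGCCC) was in 17.5% against 18.3%, or 16.8% weighted, all within the interval of the sites, and the motif of GATA factors, spelled AGATAA, was in 7.79% against 5.96% but 8.92% after weighting. ESRR-NR5A (CAAGGTCA), TCF-LEF (CATCAAAG or CTTCAAAG), STAT (TTCCNGGAA), PRDM14 (GGTCTCTAA) and NRF2 (AP-1 preceded by TGC) were in 24, 32, 19, 7 and 3 sites. For CTCF, the share in all 171517 peaks was 8.76%.

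**Figure D3:**
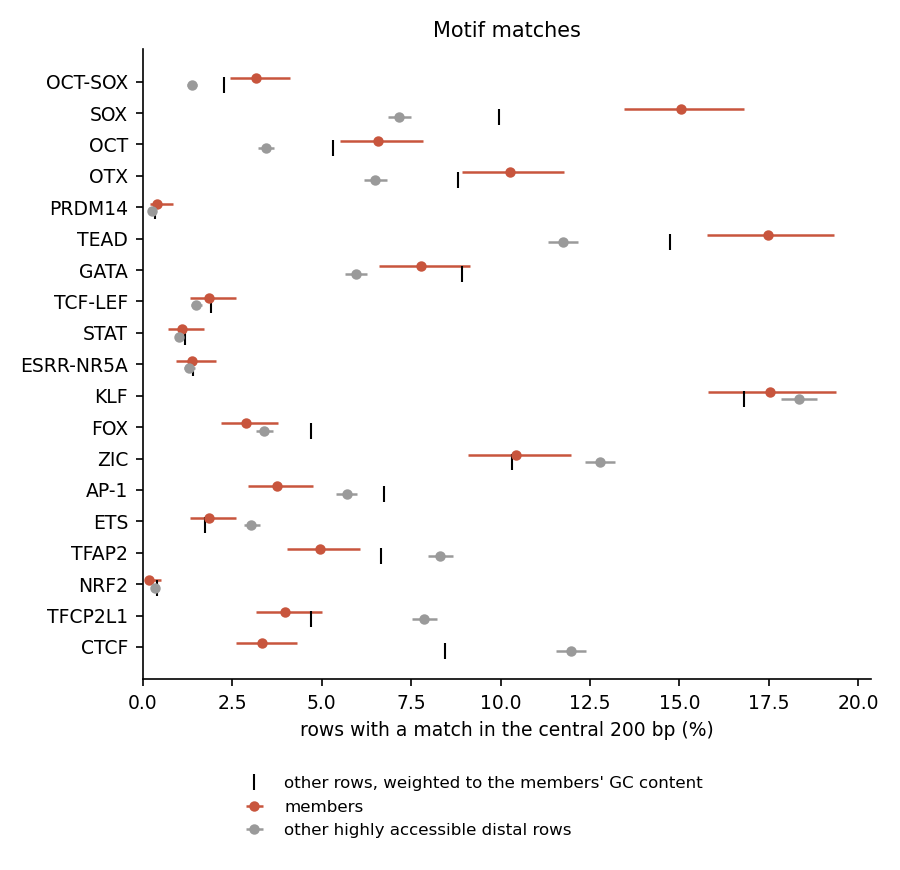
Share of 200-base windows with each motif, in percent, for the 1734 sites (members), the other highly accessible distal peaks and the same peaks weighted to the GC content of the sites. Bars are 95% Wilson intervals. SOX, OCT-SOX, the octamer, TEAD and OTX lie higher in the sites under both comparisons, and CTCF, AP-1 and TFAP2 lower under both.

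The share also differed by the number of kinds of motif, without weighting for GC content. In the shares that follow, an exact octamer or an OCT-SOX match counts as 1 kind, called octamer here, beside SOX and TEAD. Of highly accessible distal peaks with no octamer, SOX or TEAD motif, 5.64% (5.33 to 5.97) were sites of loss, against 10.9% (10.0 to 11.8) of those with 1 kind and 14.9% (12.2 to 18.2) of those with 2 kinds. By pair it was 17.2% (13.1 to 22.2) with SOX and TEAD, 14.3% (9.63 to 20.7) with the octamer and SOX, and 10.8% (6.44 to 17.7) with the octamer and TEAD, while it was 13.1% (11.0 to 15.5) with the octamer alone, 12.7% (11.1 to 14.5) with SOX alone and 9.13% (8.10 to 10.3) with TEAD alone, so a pair was not always above its single motifs. At least 1 of the 3 kinds was in 628 sites (36.2%), in 21.1% of the other highly accessible distal peaks and in 8 of the 50 peaks with gain. Over all highly accessible distal peaks, the median log2 ratio was -0.30 with OCT-SOX, -0.25 with the exact octamer and -0.23 with SOX. It was -0.19 with TEAD and 0.03 with CTCF, against -0.07 with none of the 3 kinds.

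The site of highest control CPM for each remaining motif is named here. Near ATF7IP, a cofactor of histone methylation, a TFAP2 site read 33.3, 35.2 and 28.2 CPM against 17.6, 17.6 and 20.8. Near NTMT1 a TFCP2L1 site read 23.5, 21.9 and 20.7 against 14.4, 13.3 and 9.37, and near ITM2C a CTCF site read 21.6, 21.3 and 21.1 against 11.1, 11.1 and 9.29. In introns, a TCF-LEF site of SLC6A6, the taurine transporter, fell from a mean of 27.6 to 15.4 CPM, a GATA site of MGLL, monoacylglycerol lipase, from 33.4 to 20.3, an AP-1 site of GNAL from 29.1 to 17.1 and an NRF2 site of TMTC2 from 28.6 to 14.6. An ESRR-NR5A site near ZNF770 had mean CPM of 32.1 and 19.1 and a STAT site near IL27, an interleukin gene, 16.1 and 9.67. KLF was led by the SARS1 site, TEAD by the ELMO3 site, ETS and ZIC by the YPEL4 site, FOX by the CYP1A2 site and PRDM14 by the ZBTB47 site. In each of these the libraries of the treatments did not overlap, as the rule demands.

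Some sites shared sequence with each other. Peaks whose windows aligned at 80% identity or more over at least 100 bases were joined into families, which gave 491 families with 2361 of the highly accessible distal peaks. Of the 1143 peaks in the 25 families of 10 or more, 151 (13.2%, 11.4 to 15.3) were sites of loss, against 6.62% (6.31 to 6.95) of 22817 peaks with no relative and 5.91% (4.72 to 7.38) of 1218 peaks in families of 2 to 9. Copies of transposable elements form such families, but no repeat annotation was used here and the families carry no names.

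The families differed widely from each other. In a family of 192 peaks, 47 (24.5%) were sites of loss, the median log2 ratio was -0.45, and 72.4% held an octamer. In families of 59 and 66 peaks, 20 (33.9%) and 15 (22.7%) were sites of loss, with medians of -0.53 and -0.50, and 27.3% of the latter held a TEAD motif. The largest family, of 248 peaks, had 25 (10.1%), and KLF and OTX motifs were in 43.1% and 41.5% of it. The highest share was 7 of 15 (46.7%), with a median of -0.63. By contrast 9 large families with 241 peaks had no site of loss, among them a family of 94 peaks in which 83.0% held a FOX motif (median -0.03) and a family of 37 in which 70.3% held a ZIC motif. Copies of the same sequence can share reads: all 31-base words were unique in 1233 sites (71.1%) against 80.3% of the others, and fewer than 50% were unique in 3.17% against 3.82%.

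**Figure D4:**
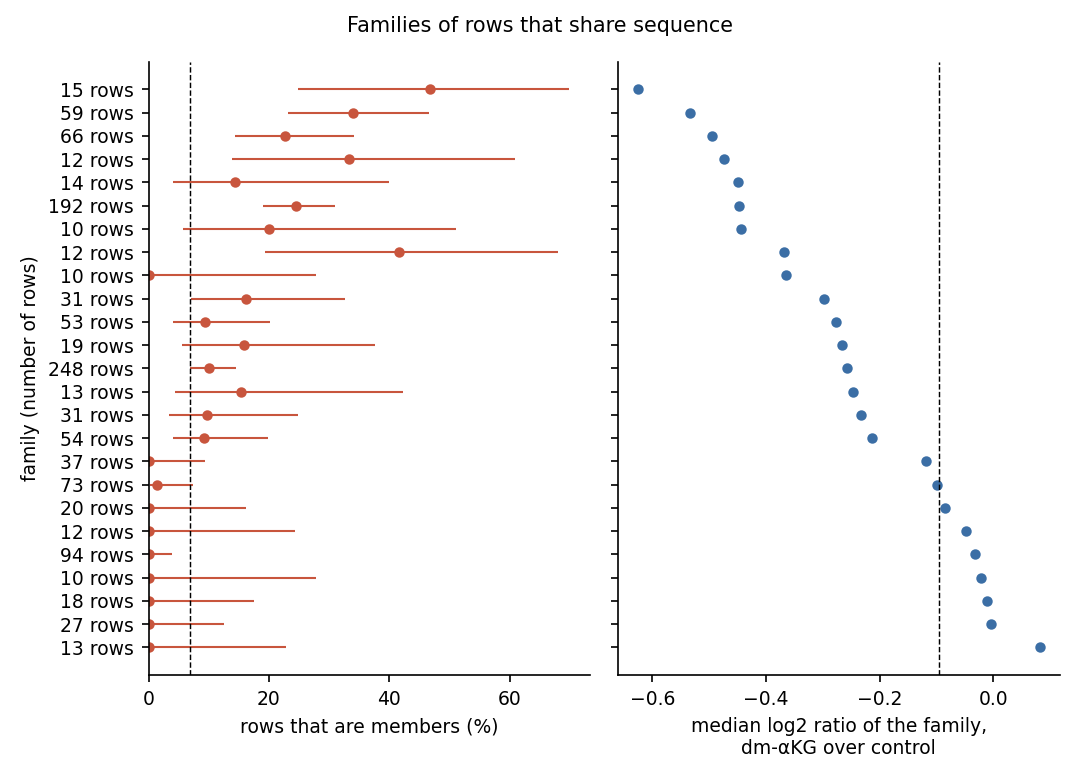
Families of highly accessible distal peaks (rows) that share sequence, each named by its size. Left, the percentage of its peaks that are sites of loss with 95% Wilson intervals; right, the median log2 ratio, with dashed lines at the values of all highly accessible distal peaks; the family of 192 peaks lies at 24.5% and -0.45 and the family of 94 at 0% and -0.03.

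The family of 192 peaks holds the MDM2 site shown above and a site 46789 bp from SEC24B, which encodes a coat protein of transport vesicles. The SEC24B site read 8.09, 9.55 and 8.66 CPM in control and 1.94, 1.84 and 2.69 CPM with dm-αKG, 4.07-fold lower. Both windows aligned on the same strand with 80.3% identity over 173 bases, and each held the octamer, in capitals below, near its 5′ end. The SEC24B window is shown so that the likeness to MDM2 can be read.
SEC24B, chr4:109386883-109387082: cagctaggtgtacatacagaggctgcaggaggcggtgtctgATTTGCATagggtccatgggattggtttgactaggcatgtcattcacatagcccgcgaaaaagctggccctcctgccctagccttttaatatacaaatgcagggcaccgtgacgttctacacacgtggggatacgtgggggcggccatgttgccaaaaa

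Some sites of loss lay close to each other. The same count was not made for the other highly accessible distal peaks, so no excess can be read from it. Joining sites no more than 12.5 kb apart gave 126 groups of 2 or more, 28 of 3 or more, and a largest group of 5, and 290 sites (16.7%) had another within that distance. The median distance to the nearest other site was 224314 bp, so most stood alone. A stretch of 73.5 kb on chromosome 12, from upstream of VWF into the introns of CD9, held several groups. In it, 16 of 20 highly accessible distal peaks were sites of loss. Its ends were drawn at the outermost of these sites, which raises that share. Over all highly accessible distal peaks nearest to each gene, it was 9 of 18 for VWF and 7 of 13 for CD9. The summed CPM of the 16 sites was between 297 and 300 in the control libraries and between 131 and 143 with dm-αKG. The 3 peaks of the stretch within 1 kb of a start had log2 ratios between -0.11 and 0.40. A further group of 5 lay within 1.73 kb on chromosome 14, nearest to RTL1, and 3 sites in introns of ACER2, a ceramidase gene, reached -1.71.

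Loss extended to the immediate surroundings. The 961 other distal peaks within 1 kb of a site had a median log2 ratio of -0.42, and 84.4% were below 0. The median was -0.22 at 1 to 2 kb, -0.14 at 2 to 5 kb, -0.16 at 5 to 10 kb, -0.08 at 10 to 50 kb and -0.03 at 100 to 200 kb. Around the other highly accessible distal peaks that were over 200 kb from any site, medians lay between -0.02 and 0.03 at every distance. Peaks within 1 kb of a transcript start behaved otherwise, with a median of -0.05 for the 26 within 1 kb of a site, 0.07 at 1 to 2 kb and 0.11 at 2 to 5 kb. Adjacent peaks can share read pairs, whose part in the first bin was not tested.

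**Figure D5:**
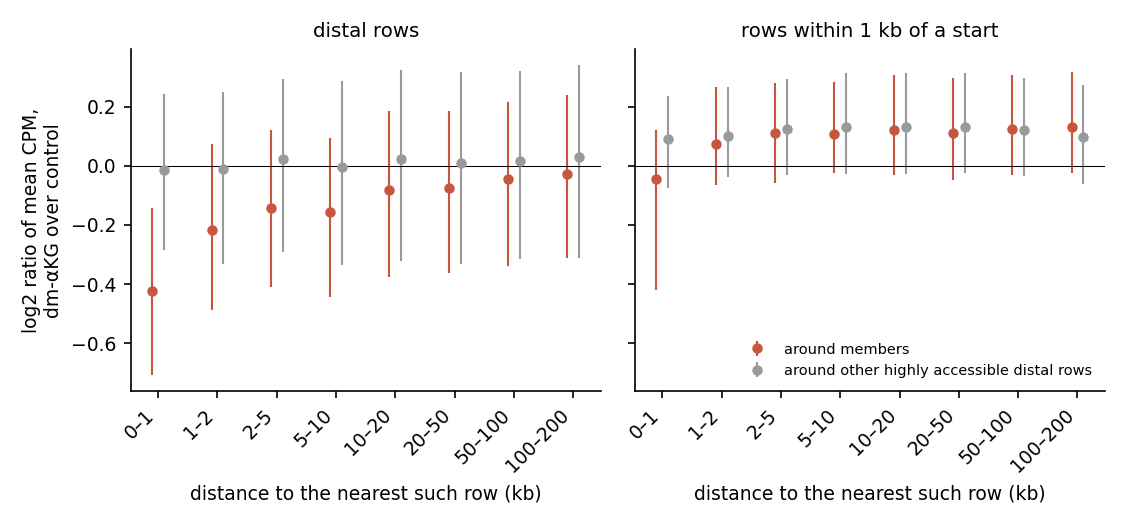
Median log2 ratio of peaks that are not sites, by distance (kb) from the nearest site or from the nearest other highly accessible distal peak, for distal peaks and for peaks within 1 kb of a transcript start. Points are medians and bars span the quartiles; distal peaks (left) rise from -0.42 within 1 kb of a site to -0.03 at 100 to 200 kb, and peaks near a start (right) are at -0.05 within 1 kb and above 0 beyond.

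The 1734 sites were nearest to 1387 genes, out of 9304 genes that were nearest to any highly accessible distal peak. Of these genes 1138 had 1 site, 186 had 2, 48 had 3 and 15 had 4 or more. At the promoters of these genes the values were close to 0. The median log2 ratio of the promoter peak was 0.07 for 6755 genes without a site, 0.04 for 1020 with 1, 0.00 for 170 with 2 and 0.02 for 59 with 3 or more. A promoter log2 ratio at or below -0.7 was found in 7 of 1020 genes with 1 site and in none of the 170 with 2 or the 59 with 3 or more, and in 51 of 6755 without a site. Promoters below 0 were 34.7% of those without a site and 39.4%, 48.8% and 47.5% with 1, 2 and 3 or more, and promoters with every dm-αKG library below every control library were 8.81%, 11.7%, 13.5% and 15.3%. The nearest gene need not be the gene an element acts on.

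MYC, the growth regulator, was nearest to 11 sites among 24 highly accessible distal peaks, all outside protein-coding genes and 82245 to 300859 bp from its start on chromosome 8. The lowest of them read 16.2, 16.2 and 18.4 CPM in control and 7.01, 6.19 and 5.68 CPM with dm-αKG (log2 ratio -1.43), and 22 of the 24 peaks were below 0. The MYC promoter peak read 20.6, 21.9 and 22.0 against 18.4, 20.8 and 21.6 (log2 ratio -0.08). VWF, encoding von Willebrand factor, and CD9, encoding a tetraspanin, had 9 of 18 and 7 of 13, and the CD9 promoter had a log2 ratio of -0.11. SMAD6, an inhibitor of BMP signalling, had 6 of 17, LZTS1 5 of 18, PODXL, which encodes the surface sialomucin podocalyxin, 5 of 14, and the imprinted gene RTL1 5 of 9.

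The LZTS1 sites included the deepest loss of this set but for PODXL, at 20.4, 22.1 and 25.6 CPM against 5.52, 5.99 and 9.44 (log2 ratio -1.70), and a PODXL site read 8.04, 10.4 and 8.29 against 2.57, 2.70 and 2.84 (-1.72). With 4 sites each there were CEMIP2, a hyaluronidase gene, MTA3, a NuRD subunit, PRDM14, PRR7, PTH1R, the parathyroid hormone receptor, SNRNP35, a spliceosome subunit, SOX4 and USP7, a deubiquitinase that acts on MDM2. SOX4 had 4 of 45 highly accessible distal peaks, whereas SNRNP35 had 4 of 5. The promoter log2 ratios were -0.09 for both CEMIP2 and MTA3, 0.02 for both PODXL and USP7, -0.03 for SOX4, -0.05 for SNRNP35, 0.10 for LZTS1, 0.14 for PRR7, -0.22 for PRDM14, -0.43 for SMAD6 and 0.53 for PTH1R, and VWF and RTL1 had no promoter peak. Of these, PTH1R, SMAD6 and PRDM14 were the furthest from 0. The PRDM14 promoter read 37.7, 33.8 and 34.7 CPM against 31.9, 29.8 and 29.3. Every dm-αKG library was below every control library at the PRDM14, SMAD6 and CD9 promoters, and above at PTH1R. Promoters with every dm-αKG library lower were 8.81% of those without a site and 15.3% with 3 or more.

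Genes of 17 lists were then read for the sites nearest to them, with the share of each list's highly accessible distal peaks set beside the 6.89% of all of them. The lists come from general knowledge and from genes discussed for this system, and they carry no test. Of 149 such peaks nearest to 24 genes of the OCT4 and SOX2 network, 16 (10.7%, 6.72 to 16.7) were sites of loss, at 8 genes. SOX2 had 3 sites, the lowest at 14.6, 13.1 and 12.6 CPM against 4.29, 4.67 and 5.68, and its promoter had a log2 ratio of -0.28. PRDM14, a repressor of differentiation genes, had 4 sites between -0.80 and -1.37, and TRIM71, which encodes an RNA-binding ligase, had 3, of which the highest read 26.8, 26.4 and 27.1 against 13.3, 17.1 and 15.6. SALL4 had 2, and ZFP42, ESRRB, JARID2 and L1TD1 had 1 each. The promoter log2 ratio was above 0 for TRIM71 (0.47) and ESRRB (0.19). It was -0.22 for PRDM14, -0.19 for both SALL4 and ZFP42, -0.16 for L1TD1 and -0.09 for JARID2. The interval of this list includes the share of all highly accessible distal peaks by a narrow margin, and under basal plus extension domains, which assign a peak to every gene whose regulatory domain it falls in, it did not (24 of 207, 11.6%, 7.92 to 16.7).

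Of the 20 naive pluripotency genes, KLF4 and TFAP2C had 2 sites each and ZNF729 had 1, together 5 of 105 peaks (4.76%, 2.05 to 10.7). The lower TFAP2C site read 8.45, 10.7 and 9.53 CPM against 3.80, 3.36 and 4.15 (log2 ratio -1.34). The promoter log2 ratio was -0.11 for TFAP2C, 0.01 for KLF4 and 0.27 for ZNF729. Among primed genes DUSP6 and SOX11 had 1 site each (2 of 38). In the trophectoderm list 4 of 68 peaks were sites of loss, among them 2 of TEAD1 and 1 of HAVCR1, the lower TEAD1 site reading 6.95, 6.23 and 7.74 against 2.199, 2.83 and 2.00 (log2 ratio -1.57). LAMB1 and RSPO3 of primitive endoderm (2 of 33), and EOMES and HAND1 of primitive streak and mesoderm (2 of 23), had 1 each, and the early epiblast list had none of 9. For all of these lists the interval included 6.89%.

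Signalling genes were read by pathway. In the TGF-β, NODAL and BMP list 15 of 102 peaks (14.7%, 9.12 to 22.9) were sites of loss, at 7 of 26 genes. Of the transducers, a SMAD3 site read 9.27, 9.0025 and 8.23 CPM against 2.46, 3.29 and 3.15 (log2 ratio -1.57). Of the ligands, BMP2 had 3 sites down to -1.43 and BMP7 had 2, at -0.99 and -1.04. Of the inhibitors, SMAD6 had 6 sites and a SMAD7 site read 22.2, 23.1 and 24.2 against 9.91, 10.1 and 11.5, and SKI, a co-repressor of SMADs, had 1 site at -1.38. The target gene ID3 had 1 site at -0.86. This interval lies above 6.89%, but 6 of the 15 sites belong to SMAD6, and when peaks were assigned to genes by basal plus extension domains the share was 18 of 174 (10.3%, 6.64 to 15.8), whose interval includes it.

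In the FGF and ERK list 9 of 84 peaks (10.7%, 5.74 to 19.1) were sites of loss. They belong to the receptors FGFR1 (13.4, 11.3 and 12.2 CPM against 4.14, 4.54 and 6.76) and FGFR4 and to the feedback inhibitors SPRY1, SPRY2, SPRY4, SPRED2 and DUSP6. The DUSP6 site held an OCT-SOX match and read 8.68, 9.84 and 10.3 against 3.95, 3.03 and 5.76, and an SPRY2 site read 15.95, 14.2 and 15.3 against 5.89, 6.65 and 7.29. In the WNT list 8 of 80 (10%, 5.16 to 18.5) were sites of loss, nearest to the receptors FZD5 and FZD7, to CTNNB1, which encodes β-catenin, to the factors TCF7L1 and TCF7L2 and to the target AXIN2, whose site read 9.36, 9.13 and 9.10 against 2.68, 4.21 and 3.22 (log2 ratio -1.45). Under basal plus extension domains the shares were 9 of 124 (7.26%) for FGF and ERK and 8 of 107 (7.48%) for WNT. None of 36 peaks near LIF and STAT3 genes was a site of loss, with a Wilson upper bound of 9.64%.

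Among genes of chromatin, KAT2B, KAT6B and SIRT1 held 5 of 29 peaks of the histone acetylation list (17.2%, 7.60 to 34.5), the lowest being a KAT2B site at 13.1, 11.3 and 13.7 CPM against 5.55, 5.93 and 7.14. In the DNA and histone methylation list JARID2, KDM4A, KDM4C and KDM5B had 1 site each (4 of 112, 3.57%), and the KDM4A site, in an intron of this α-ketoglutarate-dependent histone demethylase gene, read 9.36, 8.92 and 8.48 against 3.06, 2.50 and 2.69 (log2 ratio -1.70). Of 22 peaks near genes of α-ketoglutarate and acetyl-CoA metabolism 2 were sites of loss, among them 1 of GOT2, a transaminase, at -0.84. JUN and FOS of the AP-1 family (2 of 33) had sites at -0.82 and -0.72, and in the p53 pathway MDM2 and its relative MDM4 had 1 each (2 of 22). None of 20 peaks near NRF2 and its targets was a site of loss, with an upper bound of 16.1%. The intervals of these smaller lists are wide, and all but that of histone acetylation include 6.89%, which that list's interval also included under basal plus extension domains (5 of 50, 10%, 4.35 to 21.4).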

How the data were processed

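Libraries were grouped by the treatment in the labels. The authors ran the ENCODE ATAC-seq pipeline (trimming, alignment to hg38 by Bowtie 2, peaks by MACS2), with 1 run per treatment over its 3 replicates, and reproducible peaks were kept. These were shortened to 200 bp at the summit and combined, and the authors deposited raw counts per peak and library, obtained with bedtools 2.28.0. Their 2 deposited peak lists hold a score, a ratio of signal to background as fold enrichment, and a q-value as −log10, of which the presence of a peak and its fold enrichment were used.

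CPM were computed here from the total counts of each library. The test across peaks was run with edgeR 4.0.16 under R 4.3.3 (TMM scaling, quasi-likelihood test, treatment as the only term, all peaks), and DESeq2 1.42.0 was an alternative. In simulated counts for 171517 peaks, the fit recovered 188 of 200 changed peaks with 1 false call. The planted changes were larger than those of most sites, and every peak had the same spread between replicates. This recovery therefore does not carry over to the sites. Genes and starts were from GENCODE 44 and sequences from hg38. Windows, motifs and intervals were computed with Python 3.11.15, numpy 2.4.6, scipy 1.17.1 and pysam 0.24.0, families with BLAST 2.17.0 (word size 20) and networkx 3.6.1, and unique words with numba 0.67.0. Total counts of 13025674 to 26828622 limit the precision of single peaks. Same-treatment libraries correlated at 0.942 to 0.966 and others at 0.911 to 0.928 (log2 CPM over peaks, which are not replicates).

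The rule that defines the sites, the gene lists and the motifs were chosen with earlier results of these data known. Named were the 12 lowest ratios, the 8 highest control levels, the 3 peaks on either side of each threshold, the highest site per motif, genes with 4 or more sites and list genes with a site, and a few items that the rule names are not reported here. Alternatives changed the rule, scaling, filter, test, motif stringency and gene assignment, used a replicate block, or dropped a library at a time.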

Additional observations from a re-analysis of the deposited data

How the results depend on the processing

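The number of sites depended mainly on where the thresholds stood. It was 713 with the top 10% by level, 2858 with the top 30%, 3598 at a log2 ratio of -0.5, 539 at -1 and 1115 with the level taken over all 6 libraries, the last chosen after seeing the data. It was 1844 with TMM-scaled and 1836 with RLE-scaled CPM, and between 1666 and 1995 without each library in turn. The number called less accessible was 575 with DESeq2, between 554 and 603 with other scalings or a filter on low counts, and between 580 and 693 without each library. The median log2 ratio lay between -0.87 and -0.92 without each library. Replicate numbers did not pair the samples, with correlations of same-numbered deviations of -0.016, -0.0009 and 0.013, and a replicate block gave 587 calls and a median of -0.89. The rule itself keeps the median of the sites below 0, so its sign under the alternatives is no check. Weighting the other peaks to the GC content of the sites turned the direction of the difference for KLF, GATA, ETS, ZIC, ESRR-NR5A, STAT and TCF-LEF, whose weighted shares were 16.8%, 8.92%, 1.74%, 10.3%, 1.41%, 1.17% and 1.91%.

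With 1 mismatch fewer, OCT-SOX was in 6 sites (0.346%, against 0.192% of the others), too few to compare, and CTCF in 0.288% against 3.71%. Without families of 10 or more peaks, an alternative also chosen after seeing the data, the octamer was in 4.61% of sites and 3.00% of the others. Leaving highly accessible peaks out of the surroundings moved the median within 1 kb to -0.48. Under the basal plus extension rule every gene list was assigned more peaks, and its count of sites rose in some lists and stayed the same in others. It was 11 of 170 (6.47%) against 5 of 105 for naive genes and 3 of 64 (4.69%) against 0 of 36 for LIF and STAT3 genes. For FGF and ERK genes it was 9 of 124 against 9 of 84, and for WNT genes 8 of 107 against 8 of 80. The share of all highly accessible distal peaks was 6.89%. Depth limits single sites, whose lowest count was 15.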
